A study of Mus musculus with 20 samples.

Results

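The genes for the proteins of the mitochondrial ribosome were followed in mouse hearts through loss of OGFOD1 and 2 weeks of isoproterenol. They were taken by symbol: every protein-coding gene of GENCODE vM21 whose symbol is Mrpl or Mrps followed by a number. That gave 78 genes, 49 named Mrpl and 29 named Mrps, among the 55335 gene IDs of the deposited count table. The filter on low counts left 77 of them, tested within a fit of 14878 genes. The hearts came from C57BL/6N mice aged 3 to 5 months on an NIH-31 diet, in 4 groups of 5 libraries. The groups were OGFOD1-knockout (KO) mice given isoproterenol, KO mice given vehicle, wild-type (WT) mice given isoproterenol and WT mice given vehicle. Vehicle was phosphate-buffered saline with sodium ascorbate, isoproterenol was added to that same solution, and both were delivered from an osmotic minipump. RNA was taken from an aliquot of powdered frozen heart, so that each library mixes all cell types of the organ. The labels state neither how the KO allele was made nor whether every library came from a different mouse, so p-values measure the spread between libraries.

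Mitochondria carry their own ribosomes, which translate the few mRNAs of the mitochondrial genome into subunits of the respiratory chain and of ATP synthase. The ribosomal RNA of the large and the small subunit is made inside the organelle, whereas every ribosomal protein is encoded in the nucleus, made in the cytosol and imported. Some of these proteins descend from bacterial ribosomal proteins and others have no bacterial counterpart. The heart depends on oxidative phosphorylation, and human variants in several of these genes cause mitochondrial cardiomyopathy. OGFOD1 is an oxygenase that hydroxylates the cytosolic ribosomal protein Rps23; Mrps12 is the mitochondrial protein of the same family. Isoproterenol, a beta-adrenergic agonist, is widely used to induce cardiac hypertrophy in mice.

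The promoters of the genes carried motifs of factors known to drive nuclear genes for mitochondrial proteins. RefSeq windows of 250 bases before to 50 bases after the start (GRCm38.p6) were matched by symbol for 69 of the 78 genes. Both strands were searched for exact letters. The motif of NRF1, GCGCA and GCGC with any 1 base between them, was found for 13 of the 69 genes (18.8%), against 11.0% of the 10425 tested genes with a window. CCGGAAG, bound by GABPA and other ETS factors, was found for 26 genes (37.7%), against 19.2% of all tested genes with a window. AAGATGGC, the motif of YY1, was found for 12 genes (17.4%), against 5.06%. At least 1 of these 3 motifs was present for 43 genes (62.3%), against 31.0%. The other motifs were no more frequent among the genes than among all tested genes. The cyclic AMP response element TGACGTCA was found for 2.90%, against 3.41%, and its shorter form TGACGT, which also lies inside the longer one, for 11.6%, against 12.9%. The E-box CACGTG was found for 7.25%, against 11.6%, the GC box GGGCGG for 49.3%, against 67.5%, and the TATA motif TATAAA for 7.25%, against 9.16%. The motif of the estrogen-related receptors, TCAAGGTCA, was in no window of the 69 genes and in 0.336% of those of all tested genes. These counts are descriptions with no test. Among the 12 genes with a window that fell under isoproterenol in KO hearts, 2 had the NRF1 motif (16.7%), 4 the GABPA motif (33.3%) and 2 the YY1 motif (16.7%). Among the other 57 genes with a window, which include the untested Mrpl53, the shares were 19.3%, 38.6% and 17.5%. The shares among the genes that fell were no higher, but 12 genes are too few for a conclusion.

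The promoters of 4 genes are shown as examples picked by hand. Each gene passed a test described further on, and its window holds an NRF1 or a GABPA motif within 140 bases of the start. Windows of other genes that passed also hold such a motif: NRF1 for Mrpl14, and GABPA for Mrpl18, Mrps16 and Mrps33. Capitals mark every NRF1 match (Mrpl30, Mrpl45) and every GABPA match (Mrps27, Mrps18a). Each run is the 140 bases directly before the RefSeq start on the plus strand of GRCm38.p6, read 5′ to 3′, at chr1:37890337-37890476 for Mrpl30, chr11:97315576-97315715 for Mrpl45, chr13:99344646-99344785 for Mrps27 and chr17:46110864-46111003 for Mrps18a.
Mrpl30: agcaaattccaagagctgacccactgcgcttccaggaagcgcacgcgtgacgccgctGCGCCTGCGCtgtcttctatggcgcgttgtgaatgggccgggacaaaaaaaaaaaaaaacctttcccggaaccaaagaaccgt
Mrpl45: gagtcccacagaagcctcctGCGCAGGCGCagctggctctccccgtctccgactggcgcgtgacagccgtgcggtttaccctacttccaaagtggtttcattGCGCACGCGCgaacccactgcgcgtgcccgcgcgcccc
Mrps27: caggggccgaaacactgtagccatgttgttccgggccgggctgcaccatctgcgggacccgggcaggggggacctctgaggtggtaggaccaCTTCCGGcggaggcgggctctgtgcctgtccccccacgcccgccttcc
Mrps18a: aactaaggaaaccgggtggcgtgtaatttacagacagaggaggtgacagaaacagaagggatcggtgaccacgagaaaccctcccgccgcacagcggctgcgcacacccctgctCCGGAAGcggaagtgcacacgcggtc
Mrpl30 had 1 NRF1 match and Mrpl45 had 2, on either strand of the motif. Mrps27 and Mrps18a had 1 GABPA match each. Mrpl30, Mrpl45 and Mrps27 fell under isoproterenol in KO hearts, and Mrps18a rose in WT hearts.

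**Figure D1:**
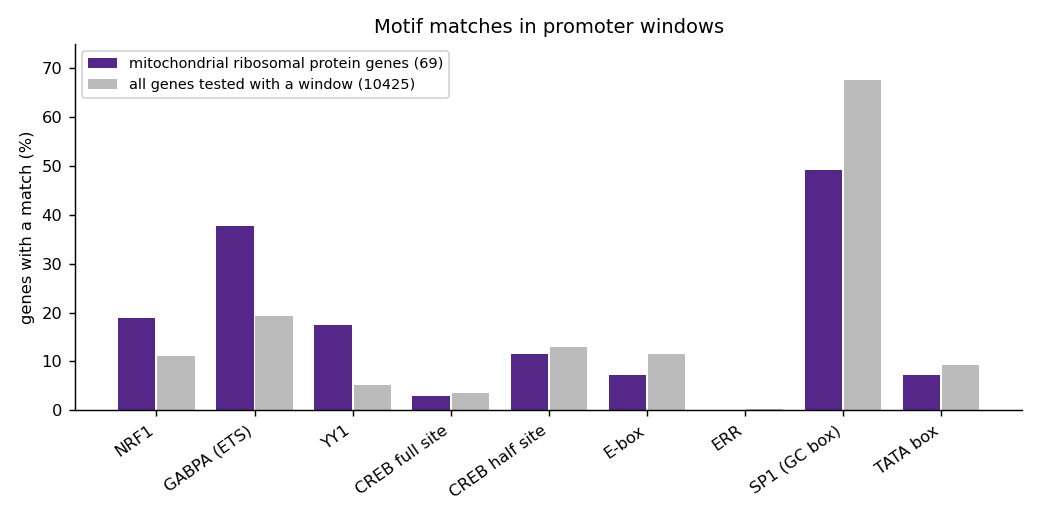
Share of genes (%) with at least 1 match of each motif in the promoter window, for the 69 mitochondrial ribosomal protein genes with a window (purple) and for the 10425 tested genes with a window (grey). The NRF1, GABPA and YY1 bars are higher for the ribosomal protein genes (18.8%, 37.7% and 17.4%) than for all genes (11.0%, 19.2% and 5.06%).

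Depth and library quality bear on all values that follow. Total counts ran from 14609808 to 43671055 per library, with 36.9% to 46.4% of them in the mitochondrial ribosomal RNA mt-Rnr2, and the 78 genes together had 16943 to 55396 counts. Ogfod1 separated the genotypes in every library, at 2.39 to 4.13 CPM (counts per 1000000 counts of a library, after trimmed mean of M values scaling) under isoproterenol and 2.49 to 4.08 CPM under vehicle in KO hearts, against 18.7 to 21.8 and 16.9 to 20.9 CPM in WT hearts. There were 2 libraries that stood apart. KO isoproterenol replicate 5 had 3634 CPM summed over 8 markers of smooth muscle and pericytes, where the median of its group was 782 CPM. WT vehicle replicate 2 had 9505 CPM of Gm42418, where the highest library of each other group was at or below 175 CPM. Some results are given with and without these libraries.

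Levels were compared between genes as CPM per kilobase of merged exons, averaged over the 20 libraries. The median of the 78 genes was 4.68 CPM per kb. Mrps21 was highest at 35.5 CPM per kb (range over libraries 29.0 to 41.6), followed by Mrpl34 at 35.1 (26.3 to 40.4); their ranges overlap almost wholly, so their order is not resolved. Mrpl42 (29.8), Mrps23 (25.3) and Mrpl41 (24.8 CPM per kb) came next, again with overlapping ranges. The 5 highest thus belonged to both subunits, and only Mrps21 and Mrpl34 among them have a bacterial counterpart. At the low end, Mrpl33 measured 1.44, Mrpl17 1.36, Mrps14 1.09 and Mrps10 0.706 CPM per kb. These 4 genes have long annotated exons, from 3258 to 8079 bases. Mrpl53, a protein of the large subunit, had 0 counts in all 20 libraries, where a count of 0 allows up to 3 counts over the series, or 0.00681 CPM. Its exons overlap Gm42688 on the same strand and Ccdc142os on the opposite strand, and the part of these overlaps in the 0 was not tested. The mRNA levels of the 77 detected genes spanned 0.706 to 35.5 CPM per kb.

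**Figure D2:**
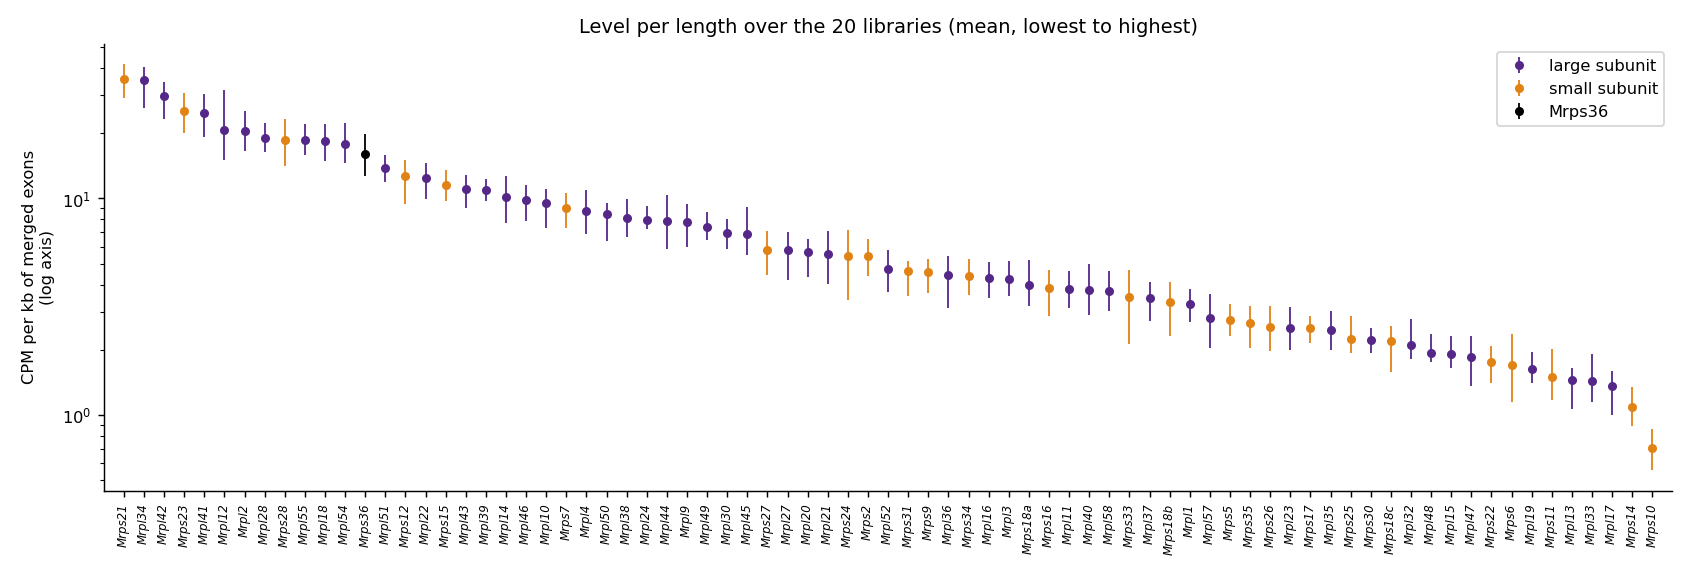
Level of each of the 77 genes with counts, in CPM per kb of merged exons on a log axis, as the mean over 20 libraries with a line from the lowest to the highest library. Genes of the large (purple) and small (orange) subunit are mixed along the whole order, which runs from Mrps21 (35.5) to Mrps10 (0.706 CPM per kb).

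The genes were measured precisely. The coefficient of variation within groups had a median of 9.57% over the 77 tested genes, from 5.28% to 21.3%, where the median of all 14878 tested genes was 14.0%. Their median level was 14.3 CPM, and that of all tested genes 6.63 CPM. The lowest raw count of a tested member in any library was 26 and the highest 4733.

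Summed over the 78 genes, the level was lowest in KO hearts given isoproterenol. The sum was 1191 ± 62.4 CPM in KO isoproterenol libraries and 1326 ± 65.8 CPM in KO vehicle libraries (SD, n = 5 each). It was 1291 ± 77.5 CPM in WT isoproterenol libraries and 1300 ± 75.2 CPM in WT vehicle libraries. The sum ran from 1085 to 1240 CPM over the KO isoproterenol libraries and from 1236 to 1386 CPM over the KO vehicle libraries, an overlap of the highest and the lowest library. Libraries of the WT groups overlapped widely, at 1192 to 1407 CPM with isoproterenol and 1184 to 1390 CPM with vehicle. Without KO isoproterenol replicate 5, the lowest of all, the KO isoproterenol sum was 1218 ± 22.4 CPM (n = 4). Without WT vehicle replicate 2 the WT vehicle sum was 1329 ± 44.3 CPM (n = 4). No p-value is given for this sum, which is a description of the list.

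**Figure D3:**
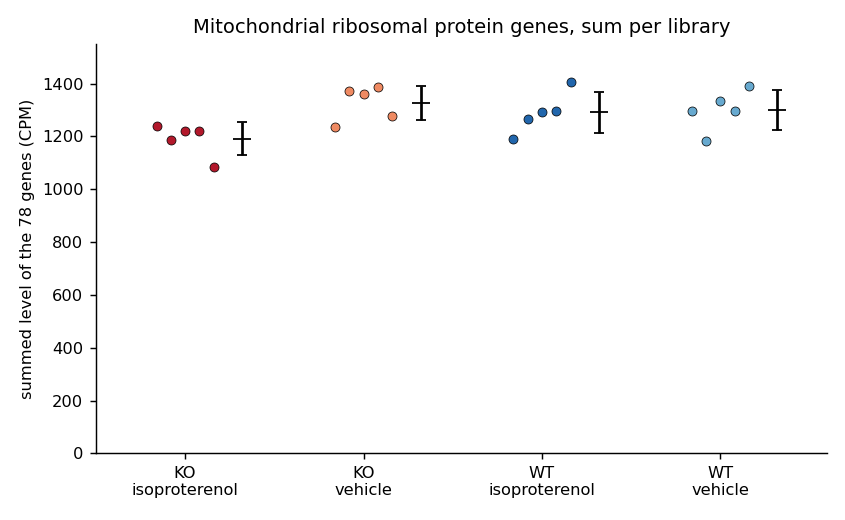
Sum of the 78 genes in CPM for each of the 20 libraries, with the mean and SD of each group (n = 5) beside the points. KO isoproterenol libraries run from 1085 to 1240 CPM, and the other groups from 1236 to 1386 (KO vehicle), 1192 to 1407 (WT isoproterenol) and 1184 to 1390 CPM (WT vehicle).

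Summed levels of some cell type markers separated the treatments in both genotypes. The sum of 7 cardiomyocyte markers was 19407 to 25767 CPM in KO isoproterenol and 25818 to 28138 CPM in KO vehicle libraries. In WT hearts it was 23568 to 25878 CPM with isoproterenol and 27575 to 33332 CPM with vehicle, so the groups did not overlap in either genotype. The sum of 8 fibroblast markers was 1276 to 1658 CPM in KO isoproterenol and 1063 to 1231 CPM in KO vehicle libraries, and 1151 to 1262 CPM with isoproterenol against 948 to 1090 CPM with vehicle in WT hearts. Between genotypes, the fibroblast sums did not overlap under isoproterenol and overlapped under vehicle. Averaged over treatments, 2 of the 8 fibroblast markers were higher in KO than in WT hearts and 0 were lower. Of all genes, 0.383% were higher in that average. Libraries that stood apart set extremes of both lists. KO isoproterenol replicate 5 had the 19407 and the 1658 CPM, and WT vehicle replicate 2 the 33332 and the 948 CPM. The cardiomyocyte markers did not all go one way: averaged over genotypes, Myl2, Myh6 and Tnnt2 were lower and Ryr2 was higher, and the other 3 did not pass. The sum of 8 macrophage markers was 173 to 200 CPM in KO isoproterenol and 153 to 162 CPM in KO vehicle libraries, and overlapped in WT hearts. The sum of 8 endothelial markers was 613 to 658 CPM in WT isoproterenol and 584 to 611 CPM in WT vehicle libraries, and overlapped in KO hearts. The sums of the other 4 lists overlapped in both genotypes, and all markers had counts. Of the 8 marker lists, the cardiomyocyte list had the highest sum in every group. In bulk tissue, fewer cells of a type and less RNA per cell cannot be told apart, and the part of these shifts in the results on mitochondrial ribosomal protein genes was not tested.

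In KO hearts, isoproterenol was followed by lower mRNA of many mitochondrial ribosomal proteins, by modest amounts. Of the 77 tested genes, 14 (18.2%) were lower than under vehicle and 0 were higher at an adjusted p under 0.05 (edgeR quasi-likelihood test, Benjamini-Hochberg over 14878 genes). Of all tested genes, 4.29% were lower and 4.75% higher in the same comparison. The median log2 fold change was −0.15 over the 77 genes and 0.01 over all genes, and 70 of the 77 values were below 0. Values ran from −0.47 for Mrps33 to 0.15 for Mrpl22, and for 72 genes the 95% interval lay within 1.5-fold either way. Mrpl42 fell by 13.8%, the least of the 14, and Mrps33 fell by 27.8%, the most. They were 7 of 50 genes of the large subunit (14.0%) and 7 of 26 of the small subunit (26.9%), a difference that was not tested. By origin they were 7 of 47 genes with a bacterial counterpart, 6 of 29 without one, and Mrpl55, for which none was assigned. In 12 of the 77 genes (15.6%) every KO isoproterenol library was below every KO vehicle library, where 4.31% of all genes were so separated.

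The genes of the small subunit that fell included both conserved and mitochondria-specific proteins. Mrps35, a protein with no bacterial counterpart (chr6:147042764-147073991, GRCm38), measured 22.0, 18.9, 21.9, 19.4 and 17.6 CPM in KO isoproterenol libraries and 24.5, 26.4, 26.9, 25.5 and 23.2 CPM in KO vehicle libraries. The groups did not overlap, and Mrps35 fell by 0.34 on the log2 scale (SE 0.0748, edgeR adjusted p = 0.00376). Mrps28 (chr3:8802146-8923918) measured 12.7, 13.3, 13.2, 13.4 and 11.1 CPM with isoproterenol, against 15.8, 16.3, 17.9, 18.1 and 14.3 CPM with vehicle. Replicate 5 was the lowest of the isoproterenol group, the groups did not overlap, and Mrps28 fell by 0.37 on the log2 scale (SE 0.0818, edgeR adjusted p = 0.00379). Mrps16, a conserved protein whose human gene is mutated in a respiratory chain deficiency (chr14:20389304-20393634), measured 9.48, 8.76, 9.27, 10.6 and 9.98 CPM with isoproterenol and 12.7, 13.5, 13.1, 13.5 and 11.8 CPM with vehicle. Again every isoproterenol library was below every vehicle library, and Mrps16 fell by 0.42 on the log2 scale (SE 0.0944, edgeR adjusted p = 0.00431). Mrps2, another conserved protein (chr2:28468066-28471178), measured 15.3, 13.7, 14.8, 12.9 and 12.8 CPM with isoproterenol and 16.8, 17.9, 17.5, 18.9 and 16.5 CPM with vehicle, also without overlap. Mrps2 fell by 0.33 on the log2 scale (SE 0.0836, edgeR adjusted p = 0.0108).

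The other 3 genes of the small subunit that fell were Mrps10, Mrps33 and Mrps27. Mrps10, conserved in bacteria and the lowest of the tested genes per length (chr17:47368887-47381417), averaged 4.95 ± 0.634 CPM with isoproterenol and 6.53 ± 0.348 CPM with vehicle in KO hearts (SD, n = 5 each). It fell by 0.39 on the log2 scale (SE 0.103, edgeR adjusted p = 0.0151) without overlap of the groups. Mrps33 (chr6:39801804-39810988) had the largest change but a wide spread, at 5.04, 3.56, 6.60, 5.34 and 4.13 CPM with isoproterenol and 6.79, 6.60, 7.67, 7.83 and 5.55 CPM with vehicle. Only the isoproterenol library at 6.60 CPM lay within the vehicle range, and the gene fell by 0.47 on the log2 scale (SE 0.127, edgeR adjusted p = 0.0165). Mrps27, a pentatricopeptide repeat protein (chr13:99344786-99415562), averaged 10.8 ± 1.16 CPM with isoproterenol and 13.7 ± 0.798 CPM with vehicle and fell by 0.34 on the log2 scale (SE 0.0944, edgeR adjusted p = 0.0215); 1 isoproterenol library reached the vehicle range. Mrps27 shares exon sequence with 6430562O15Rik on the opposite strand, which averaged 1.20 CPM.

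Among genes of the large subunit, Mrpl30 had the smallest p. Mrpl30, a conserved protein (chr1:37890477-37898535, GRCm38; its promoter is printed before), measured 20.3, 19.6, 21.2, 21.1 and 19.6 CPM in KO isoproterenol libraries and 24.6, 25.3, 25.8, 25.3 and 24.0 CPM in KO vehicle libraries. The highest isoproterenol library, at 21.2 CPM, was below the lowest vehicle library, at 24.0 CPM. Mrpl30 fell by 0.30 on the log2 scale (SE 0.0633, edgeR adjusted p = 0.00261). Mrpl47 (chr3:32725397-32737605) measured 7.08, 6.03, 7.04, 7.89 and 6.69 CPM with isoproterenol and 8.42, 9.99, 8.25, 10.0 and 8.94 CPM with vehicle. Its groups did not overlap, and it fell by 0.39 on the log2 scale (SE 0.0970, edgeR adjusted p = 0.00874). Exons of Mrpl47 overlap those of Ndufb5, a respiratory complex I subunit on the opposite strand at 83.3 CPM, which had a log2 fold change of −0.29 (adjusted p = 0.00378) in the same comparison; the part of that overlap was not tested. Mrpl45, which lies near the polypeptide exit where the ribosome meets the inner membrane (chr11:97315716-97329920), measured 16.5, 14.5, 15.5, 15.8 and 14.3 CPM with isoproterenol and 19.4, 18.5, 18.9, 18.0 and 18.8 CPM with vehicle. The groups did not overlap, yet its p was the closest to the threshold of the 14, with a log2 fold change of −0.29 (SE 0.0926) and an adjusted p of 0.0466.

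The remaining genes of the large subunit that fell were Mrpl18, Mrpl42, Mrpl46 and Mrpl55. Mrpl18, a conserved protein of the central protuberance (chr17:12911349-12916345), averaged 22.9 ± 1.83 CPM with isoproterenol and 27.3 ± 1.41 CPM with vehicle, and fell by 0.25 on the log2 scale (SE 0.0747, edgeR adjusted p = 0.0285). Mrpl42, the most abundant of the 14 and without a bacterial counterpart (chr10:95480805-95501940), averaged 101 ± 10.0 CPM with isoproterenol and 117 ± 7.81 CPM with vehicle, and fell by 0.21 on the log2 scale (SE 0.0648, edgeR adjusted p = 0.0331). Only the Mrpl18 groups did not overlap among these 4 genes. Exons of Mrpl18 overlap those of Tcp1 on the opposite strand, at 57.2 CPM, which had a log2 fold change of −0.19 (adjusted p = 0.0661) in the same comparison; the part of that overlap was not tested. Mrpl46 (chr7:78775236-78783531) fell by 0.27 on the log2 scale (SE 0.0840, edgeR adjusted p = 0.0398) and shares exon sequence with Mrps11 on the opposite strand. Mrpl55 (chr11:59202486-59206134) fell by 0.23 (SE 0.0713, edgeR adjusted p = 0.0417). Just outside the threshold were Mrpl54 (−0.26, adjusted p = 0.0510), Mrpl3 (−0.22, 0.0522), Mrpl38 (−0.23, 0.0529) and Mrps18b (−0.33, 0.0529), so the number 14 depends on where the line is drawn.

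The count rested partly on single libraries, while 7 genes passed under every alternative. Without KO isoproterenol replicate 5 there were 7 genes, without KO isoproterenol replicate 2 there were 9, without KO vehicle replicate 3 there were 9 and without KO vehicle replicate 4 there were 8, all lower. With both libraries that stood apart left out, 11 genes were lower, 9 of them among the 14. The share of all genes called under these settings is not given here. Whether the lower counts are particular to the ribosomal protein genes was not tested. Mrpl30, Mrpl47, Mrps2, Mrps10, Mrps16, Mrps28 and Mrps35 fell in each of the 31 alternatives. Among the 43 tested genes with no exon overlap and no pseudogene of the same name, 10 fell (23.3%). Of all tested genes, 4.29% were lower in this comparison.

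**Figure D4:**
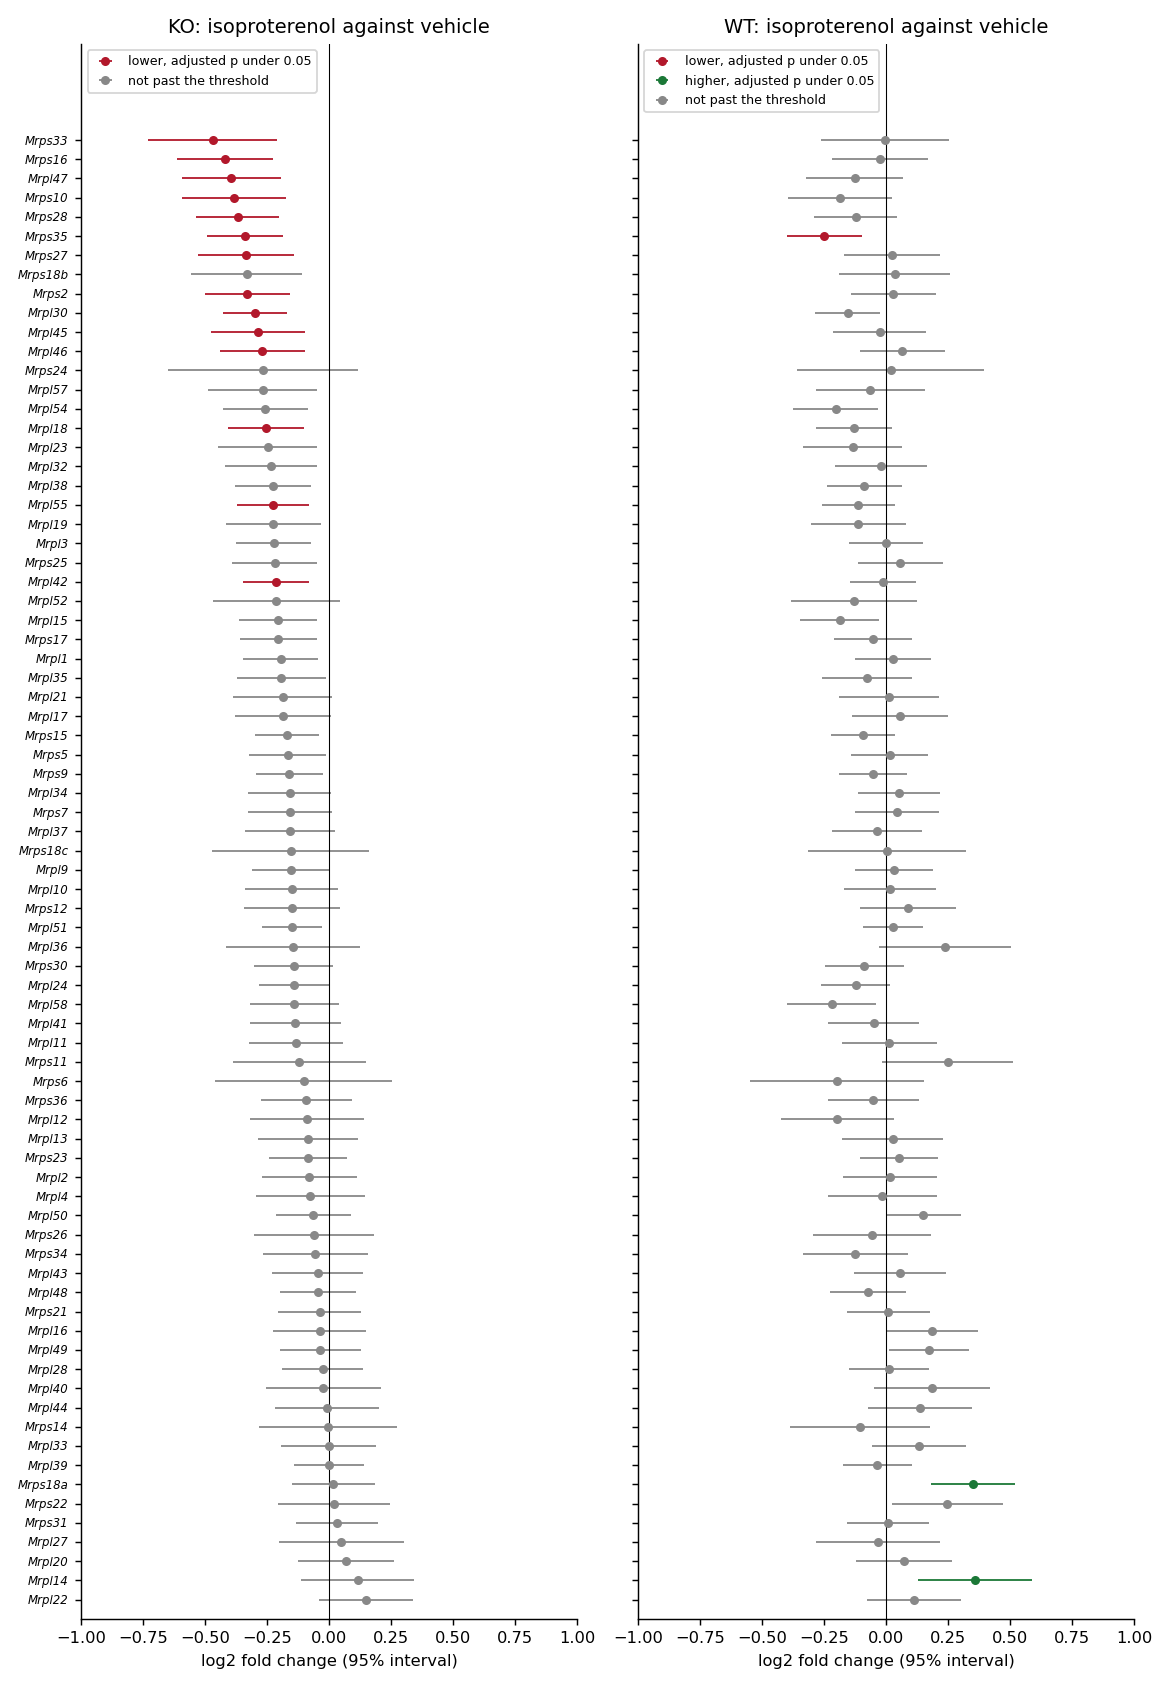
Log2 fold change of isoproterenol against vehicle with its 95% interval for the 77 tested genes, in KO hearts (left) and WT hearts (right), ordered by the value in KO hearts. In KO hearts 14 genes are lower (red) and 70 of the 77 points lie left of 0, and in WT hearts 1 is lower, 2 are higher (green) and 39 lie left of 0.

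In WT hearts, isoproterenol was followed by few changes in these genes. Of the 77, 2 were higher and 1 lower (2.60% and 1.30%), where 4.64% of all tested genes were higher and 4.12% lower. The median log2 fold change was −0.0018 over the 77 genes and 0.0039 over all genes, and 39 of the 77 were below 0. With 1 library left out at a time, the median over the 77 genes ran from −0.051 to 0.031. For 76 genes the 95% interval lay within 1.5-fold either way. Mrps18a, 1 of 3 mammalian relatives of a bacterial small-subunit protein that itself sits in the large subunit (chr17:46110986-46128910), measured 15.3, 16.8, 16.2, 16.3 and 19.2 CPM in WT isoproterenol libraries and 12.4, 11.8, 14.3, 12.8 and 14.1 CPM in WT vehicle libraries. Every isoproterenol library was above every vehicle library, and Mrps18a rose by 0.35 on the log2 scale (SE 0.0825, edgeR adjusted p = 0.00663). Mrpl14, a conserved protein of the large subunit (chr17:45686322-45698495), measured 11.1, 11.3, 10.9, 10.7 and 11.7 CPM with isoproterenol and 7.34, 9.85, 8.51, 7.41 and 10.3 CPM with vehicle. These groups did not overlap either, and the 2 genes were the only ones of the 77 so separated upward (2.60%, against 4.29% of all genes). Mrpl14 rose by 0.36 (SE 0.112, edgeR adjusted p = 0.0419). Its exons overlap those of Tmem63b on the opposite strand, which is more abundant (65.0 CPM) and had a log2 fold change of −0.05 (adjusted p = 0.771) in WT hearts; the strand setting of the counting is not given in the sources used here.

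Mrps35 was the gene that fell in both genotypes. In WT hearts it measured 19.2, 21.2, 20.8, 20.6 and 25.1 CPM with isoproterenol and 23.5, 25.2, 24.5, 26.0 and 27.4 CPM with vehicle. Replicate 5 of the isoproterenol group reached into the vehicle range, and Mrps35 fell by 0.25 on the log2 scale (SE 0.0747, edgeR adjusted p = 0.0338). Mrps18a passed under all 31 alternatives, Mrpl14 missed the threshold in 8 and Mrps35 in 7. Without any one of WT isoproterenol replicates 1, 2, 3 or 4 or WT vehicle replicate 4, 1 gene remained called, Mrps18a. Leaving out both libraries that stood apart gave 4 genes: Mrpl14, Mrps18a, Mrps35 and Mrpl15. With 2 surrogate variables there were 6 genes, 2 higher and 4 lower: Mrpl14, Mrps18a and Mrps35 as before, with Mrpl15, Mrpl30 and Mrpl54.

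**Figure D5:**
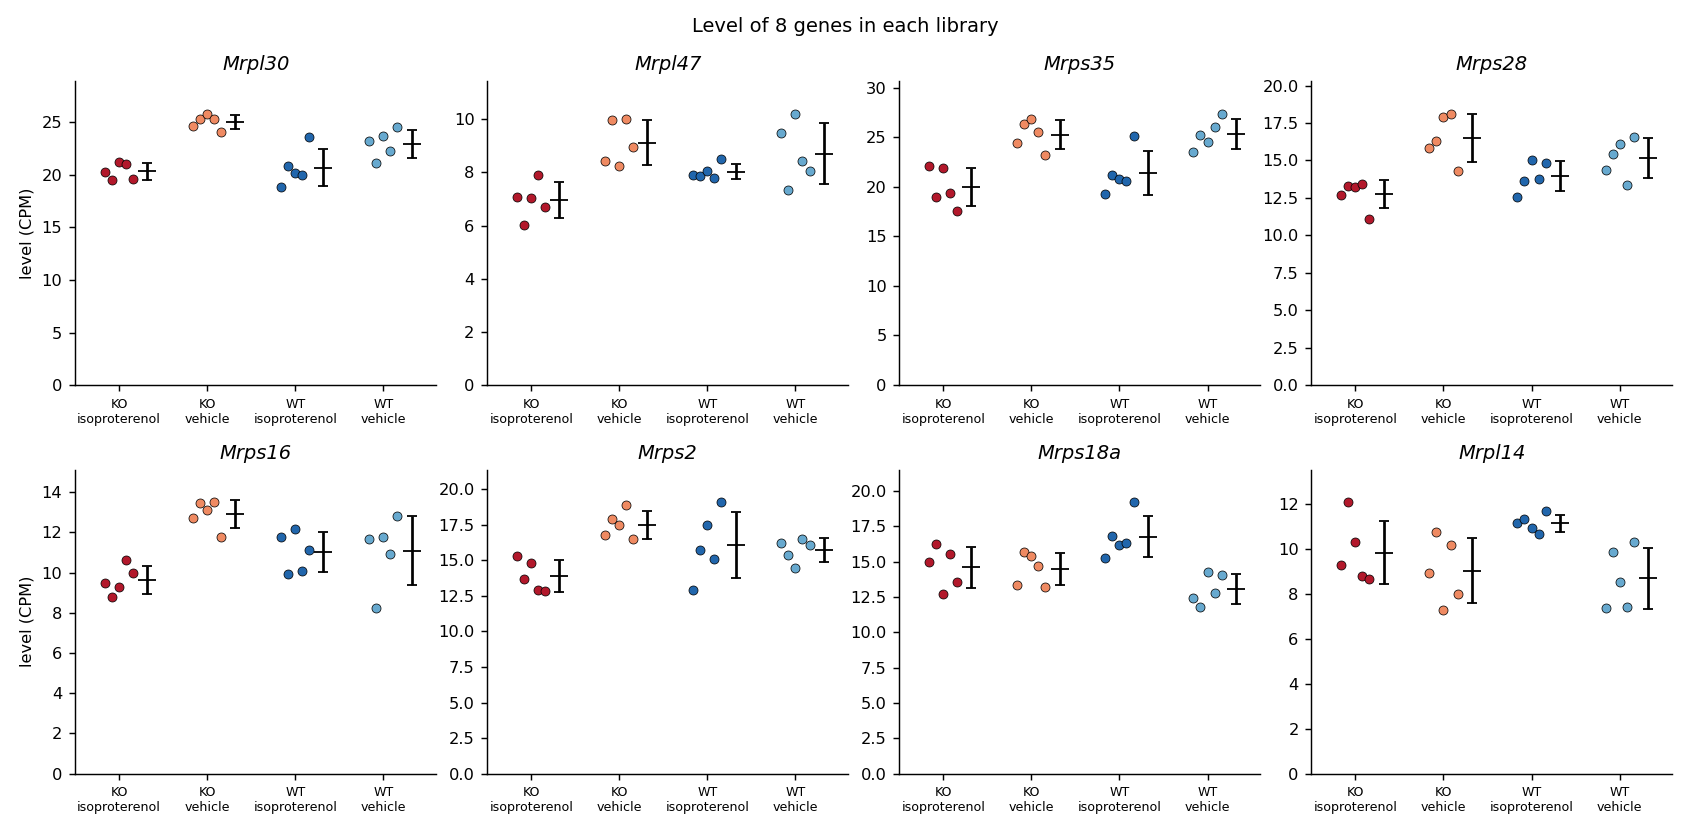
CPM of 8 genes in each of the 20 libraries, with the mean and SD of each group (n = 5). Mrpl30, Mrpl47, Mrps35, Mrps28, Mrps16 and Mrps2 are lower in KO isoproterenol than in KO vehicle libraries without overlap, and Mrps18a and Mrpl14 are higher in WT isoproterenol than in WT vehicle libraries without overlap.

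Whether the response differed between genotypes was tested with the difference of the 2 isoproterenol effects, and 0 of the 77 genes passed (edgeR; smallest adjusted p = 0.518). None of the 14878 genes passed either (0.0%). At an unadjusted p under 0.05 there were 15 of the 77 (19.5%), beside 7.68% of all genes, and DESeq2 and limma-voom also called 0 of them. The median difference, KO response minus WT response, was −0.15 over the 77 genes and 0.0034 over all genes, and 67 of 77 were below 0. With 2 surrogate variables the median over the 77 genes was −0.041. It ran from −0.18 to −0.10 with 1 library left out at a time. For Mrps16 the difference was −0.39 (95% interval −0.67 to −0.12), for Mrps33 −0.47 (−0.83 to −0.10) and for Mrps18a −0.33 (−0.57 to −0.09). For Mrpl30 it was −0.14 (−0.33 to 0.04), which includes 0. These intervals are not adjusted for the number of genes, and Mrps16 and Mrps33 are printed as 2 of the 3 lowest values. Mrps18a was picked by its rise in the same WT libraries. Intervals that leave out 0 are therefore no result for single genes. The 14 genes that fell in KO hearts had log2 fold changes of −0.25 to 0.07 in WT hearts, with a median of −0.07, and 11 of the 14 were below 0 there. A fall in 1 genotype and not in the other is therefore not shown to be a difference between them.

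Averaged over both genotypes, 13 of the 77 genes (16.9%) were lower with isoproterenol than with vehicle and 2 (2.60%) were higher, where 9.07% of all genes were lower and 9.76% higher. The median was −0.08 over the 77 genes and 0.01 over all genes. The 2 higher genes were again Mrpl14 and Mrps18a. Tmem63b, whose exons overlap those of Mrpl14, had log2 fold changes of 0.31 in KO hearts (edgeR adjusted p = 0.0114) and 0.13 averaged (0.102). The part of that overlap in the Mrpl14 values was not tested. Of the 13 lower genes, 8 had also passed in KO hearts alone: Mrpl18, Mrpl30, Mrpl47, Mrpl55, Mrps10, Mrps16, Mrps28 and Mrps35. The other 5 passed in neither genotype alone: Mrpl15, Mrpl38, Mrpl54, Mrps15 and Mrpl58, the last a peptidyl-tRNA hydrolase that became a ribosomal protein. The averaged falls of all 13 lower genes ran from −0.29 to −0.13. In 10 of the 13 the call held in all 30 alternatives, whereas Mrpl14 missed the threshold in 10 and Mrps18a in 5.

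Between KO and WT hearts, none of these genes passed the threshold. Under vehicle, 0 of 77 were higher or lower in KO than in WT hearts (edgeR, adjusted p under 0.05), where 0.128% of all genes passed. There were 5 at an unadjusted p under 0.05 (6.49%), beside 8.31% of all genes, and DESeq2 and limma-voom called 0. The median was 0.03, and every 95% interval lay within 1.5-fold either way. With 1 library left out at a time, this median ran from −0.015 to 0.057, so its sign is not resolved. Mrpl12, a protein of the ribosomal stalk that also binds the mitochondrial RNA polymerase, was the lowest at −0.30 (SE 0.110, adjusted p = 0.402). It measured 28.0, 33.9, 27.4, 30.2 and 29.2 CPM in KO vehicle libraries and 32.4, 48.3, 32.1, 37.1 and 34.2 CPM in WT vehicle libraries. WT vehicle replicate 2, which stood apart, was the highest of these. In this comparison Mrpl12 passed with no filter on low counts (adjusted p = 0.0315), and in no other alternative. Under isoproterenol, 0 of 77 passed (0.181% of all genes), 17 had an unadjusted p under 0.05 (22.1%, beside 13.0% of all genes), and DESeq2 and limma-voom called 0. The median was −0.11 and 69 of 77 were below 0. In 4 genes, Mrpl3, Mrpl16, Mrpl38 and Mrps5 (5.19%), every KO isoproterenol library was below every WT isoproterenol library, where 1.13% of all genes were so separated. The smallest adjusted p under isoproterenol was 0.166, for Mrpl46 (−0.28). Averaged over treatments, 0 of 77 passed (0.847% of all genes), 7 had an unadjusted p under 0.05 (9.09%, beside 12.8% of all genes), and DESeq2 and limma-voom called 0. In this average, 3 alternatives called 1 gene each: Mrpl38 was lower with 2 surrogate variables (adjusted p = 0.0362) and when both libraries that stood apart were left out (0.0485), and Mrpl12 was lower with no filter on low counts (0.00126). The comparison of KO with WT under isoproterenol shares its KO libraries with the comparison of isoproterenol with vehicle in KO, so these values are not independent of each other.

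For the 14 genes that fell in KO hearts, the log2 fold changes between KO and WT had a median of −0.15 under isoproterenol, from −0.28 to 0.01, and of 0.11 under vehicle, from −0.02 to 0.25, and none passed. Over all 77 genes these medians were −0.11 and 0.03. The 14 were chosen by the same KO libraries, with vehicle above isoproterenol. That choice favours values below WT under isoproterenol and above WT under vehicle, so these medians are a description and no separate result. In all 4 groups, Mrps16 averaged 9.62 ± 0.708 CPM in KO isoproterenol, 12.9 ± 0.715 CPM in KO vehicle, 11.0 ± 0.995 CPM in WT isoproterenol and 11.1 ± 1.72 CPM in WT vehicle libraries (SD, n = 5 each). Mrps2 averaged 13.9 ± 1.13, 17.5 ± 0.973, 16.1 ± 2.33 and 15.7 ± 0.823 CPM in the same groups.

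Mrps12, the mitochondrial relative of the OGFOD1 substrate Rps23, passed in no comparison. It measured 12.2, 13.1, 11.7, 14.0 and 10.9 CPM in KO isoproterenol and 12.3, 13.3, 13.8, 14.9 and 14.3 CPM in KO vehicle libraries, against 12.0, 13.0, 13.5, 15.3 and 15.6 CPM in WT isoproterenol and 13.6, 9.78, 13.2, 14.2 and 14.3 CPM in WT vehicle libraries. All 4 groups overlapped, and WT vehicle replicate 2 was the lowest library. Its log2 fold change between KO and WT was 0.07 under vehicle (95% interval −0.12 to 0.26; −0.0072 without WT vehicle replicate 2) and −0.17 under isoproterenol (−0.36 to 0.03). Rps23 itself averaged 30.4 ± 3.68 CPM in KO isoproterenol, 32.3 ± 3.08 CPM in KO vehicle, 30.3 ± 3.65 CPM in WT isoproterenol and 29.9 ± 3.18 CPM in WT vehicle libraries. Its log2 fold change between KO and WT was 0.11 under vehicle (adjusted p = 0.814) and 0.01 under isoproterenol (adjusted p = 0.975).

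The 3 Mrps18 genes, which descend from 1 bacterial protein, had unlike values, and no test compared these genes with each other. Mrps18a averaged 14.6 ± 1.45 CPM in KO isoproterenol and 14.5 ± 1.14 CPM in KO vehicle libraries, with a log2 fold change of 0.02 (95% interval −0.15 to 0.18), next to its rise in WT hearts. Mrps18b averaged 6.18 ± 0.897 and 7.81 ± 0.948 CPM in the same KO groups (−0.33, −0.56 to −0.11), and had 0.03 in WT hearts. Mrps18c, at 2.28 ± 0.391 and 2.55 ± 0.120 CPM, had −0.16 in KO and 0.0045 in WT hearts. Mrps30, which like Mrps18a sits in the large subunit despite its name, had −0.14 in KO and −0.09 in WT hearts. Mrps36, whose product is known as a component of the 2-oxoglutarate dehydrogenase complex, had −0.09 in KO and −0.05 in WT hearts. None of these values passed apart from the rise of Mrps18a in WT hearts.

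None of the 4 genes tied to human mitochondrial cardiomyopathy passed in any comparison. Mrpl3 averaged 25.7 ± 0.647 CPM in KO isoproterenol and 30.0 ± 1.42 CPM in KO vehicle libraries. These groups did not overlap (24.8 to 26.6 against 28.9 to 32.4 CPM), and the adjusted p of its log2 fold change, −0.22, was 0.0522; it passed in 12 of 31 alternatives. In WT hearts Mrpl3 had −0.0018 (95% interval −0.15 to 0.15). Mrpl44 had −0.01 in KO and 0.14 in WT hearts. Mrps22 had 0.02 in KO and 0.25 in WT hearts, and Mrps14 −0.0047 and −0.11.

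Other parts of the mitochondrial translation apparatus were read from lists of known genes. Ptcd3, a pentatricopeptide repeat protein of the small subunit whose symbol falls outside the naming rule, averaged 43.6 ± 4.04 CPM in KO isoproterenol and 59.1 ± 3.52 CPM in KO vehicle libraries, against 48.2 ± 3.45 CPM in WT isoproterenol and 55.1 ± 3.06 CPM in WT vehicle libraries. In KO hearts it fell by 0.44 on the log2 scale (SE 0.0672, edgeR adjusted p = 6.44e-05), the only 1 of 5 such ribosomal proteins to pass. Of 15 tested translation factors, 6 fell with isoproterenol in KO hearts and 0 rose, where 4.29% of all genes were lower. They included the elongation factors Tufm (−0.23) and Gfm1 (−0.26), and Gfm2 (−0.21), which is related to Gfm1 by sequence. The others were Mrrf (−0.25), which acts in recycling, the release factor Mtrf1l (−0.39) and the mRNA-stabilising protein Lrpprc (−0.29). Gfm1, for example, averaged 75.5 ± 6.58 CPM in KO isoproterenol and 90.5 ± 5.51 CPM in KO vehicle libraries. In WT hearts 1 of 15 fell, Gfm2 (−0.18), where 4.12% of all genes were lower. The median log2 fold change of the 15 was −0.19 in KO and −0.08 in WT hearts, beside 0.01 and 0.00 over all genes.

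The shares of lower genes over all genes, 4.29% in KO and 4.12% in WT hearts, are the background of the counts that follow. Of 27 factors of mitochondrial ribosome assembly, 3 fell in KO hearts: Mterf4 (−0.33), the GTPase Mtg2 (−0.37) and the rRNA methyltransferase Mrm3 (−0.44). In WT hearts 1 of 27 fell, C1qbp (−0.38). Of 9 genes of mitochondrial transcription and genome maintenance, Tfb2m, a factor for initiation of mitochondrial transcription, fell in KO hearts (−0.27) and 0 in WT hearts. Neither mitochondrial rRNA passed in either genotype, and of the 13 mitochondrially encoded protein genes 1 fell in KO hearts, mt-Nd3 (−0.47), and 0 in WT hearts. The median log2 fold change of these 13 genes was −0.23 in KO and −0.30 in WT hearts, beside −0.15 and −0.0018 for the ribosomal protein genes. Averaged over genotypes 5 of the 13 were lower, where 9.07% of all genes were. In that average 6 of 15 translation factors, 7 of 27 assembly factors and 2 of 9 genes of transcription and genome maintenance were also lower. So were 3 of 11 regulators of mitochondrial genes, and 0 of the genes in these lists were higher. Among 11 transcriptional regulators of mitochondrial genes, Esrrg fell in KO hearts (−0.30) and Ppargc1b in WT hearts (−0.46). No gene of these lists rose in either genotype, and none passed between KO and WT hearts.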

How the data were processed

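Stranded total RNA libraries from 20 powdered mouse heart samples were analysed, 5 in each of 4 groups taken from the labels. The deposited values are raw counts, 1 table for all libraries. Per the submitters' processing notes, the authors used HISAT2 2.1.0, featureCounts 1.6.3 and GRCm38 for these counts; R 3.6.0 and limma 3.40.6 are listed too. How strand, annotation release and reads matching several genes were handled is not given in the sources used here, so genes with overlapping exons or pseudogenes are uncertain: 8 of the 78 genes have exon overlap on the same strand, 28 on the opposite strand, and 3 have a pseudogene of the same name. No column lacked a sample (0), and no libraries of a group agreed within sampling noise (lowest chi-square per degree of freedom 3.85).

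Versions were stripped from the gene IDs, of which 55154 of 55335 were found in GENCODE vM21, 54587 with the same version. The edgeR 4.0.16 package in R 4.3.3 was run on the deposited counts with filterByExpr, trimmed mean of M values scaling and 1 robust quasi-likelihood fit of all 20 libraries with a mean per group (16 residual degrees of freedom, common biological coefficient of variation 0.119). Of 7 comparisons, each was adjusted over 14878 genes (Benjamini-Hochberg, called under 0.05). The procedure was tested on simulated data. Alternatives were DESeq2 1.42.0, limma-voom (limma 3.58.1) plain or with quality weights, RLE and upper quartile scaling, no or a stricter filter, mitochondrially encoded genes removed, 2 surrogate variables (sva 3.50.0), the libraries that stood apart left out, fits restricted to the compared groups, and each library left out. Promoters came from RefSeq, GRCm38.p6. Python 3.11.15 and matplotlib 3.10.9 drew the figures.

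Genes were named by rule: up to 12 per comparison by p, the extremes of each comparison and of the level per length, and a fixed set of ribosomal proteins with known roles. Not all of them are printed. The members, lists and rules were chosen with earlier results of these data known.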

Additional observations from a re-analysis of the deposited data

Results flagged for a closer look

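Within each group of 5 libraries, 184 sets of values (the genes considered and the median of all 77) were searched for a library far from the other 4. A set was marked in 11 cases (5.98%), and chance alone marks about 1 group in 20.

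WT vehicle replicate 2 accounted for 7 of the 11 and was the lowest library each time. It had 7.62 CPM of Mrpl17 (other WT vehicle libraries 10.3 to 11.0), 7.55 CPM of Mrpl20 (9.28 to 9.57), 18.5 CPM of Mrpl41 (22.5 to 24.3), 9.78 CPM of Mrps12 (13.2 to 14.3), 4.96 CPM of Mrps24 (8.26 to 9.98), 13.4 CPM of Mrps30 (15.9 to 16.2) and 17.3 CPM of Mrps36 (21.7 to 23.3). This is the library with 9505 CPM of Gm42418 and 581 CPM of Lars2, and the part of that in its low values was not tested.

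KO isoproterenol replicate 5 was lowest for Mrps28, at 11.1 CPM (others 12.7 to 13.4), and for the median over the 77 genes, at 3.61 log2 CPM (others 3.73 to 3.78). It is the library with high smooth muscle markers, and the part of that was not tested. KO vehicle replicate 1 was lowest for Mrpl20, at 8.29 CPM (others 9.47 to 9.91). KO vehicle replicate 4 was highest for Mrpl3, at 32.4 CPM (others 28.9 to 29.8).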

How the results depend on the processing

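No paired analysis was possible because replicates are numbered in record order, which ties no library to one of another group. A fit of only the groups compared could not be run for the difference between responses or for the averages. Apart from the settings that leave out 1 library, 6 of 148 values of counts and medians were marked as moved and 142 were not. Counts that were not marked still changed. For isoproterenol in KO, 18 genes were called with DESeq2 and 11 without both libraries that stood apart, beside 14. For isoproterenol averaged over genotypes, 21 were called with 2 surrogate variables and 13 with no filter on low counts, beside 15. The marked values were as follows. With 2 surrogate variables, isoproterenol in WT gave 6 genes (2 higher, 4 lower), the median difference between responses was −0.041, and KO against WT averaged over treatments gave 1 (Mrpl38, lower; adjusted p = 0.0362, 0.0362 to 0.321 over its alternatives). Leaving out both libraries that stood apart gave that comparison 1 gene, again Mrpl38. With no filter on low counts, Mrpl12 was lower in KO averaged over treatments (1 gene) and under vehicle (1 gene; adjusted p = 0.0315, 0.0315 to 0.715 over its alternatives). Leaving out 1 library gave 7 to 17 genes for isoproterenol in KO, 1 to 3 in WT, 12 to 21 on average, and 0 for the comparisons of genotypes and of responses. The shares over all genes under these settings are not given here, and the cause of these shifts was not tested.

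Uncalled values near 0 changed sign, all log2 fold changes. For isoproterenol in WT, Mrpl3 was 0.0016 with limma-voom, Mrps12 −0.053, Mrps18b −0.046, Mrps18c −0.0027 and Rps23 −0.11 with 2 surrogate variables, Mrps18c −0.00018 with RLE scaling, and Rps23 −0.030 without the libraries that stood apart and −0.017 with quality weights. For isoproterenol in KO, Mrpl44 was 0.034 with 2 surrogate variables, 0.032 without those libraries and 0.0076 with quality weights, Mrps14 was 0.015 with limma-voom and Mrps18a −0.0012 with upper quartile scaling. Between KO and WT, Mrps12 under vehicle was −0.026 with 2 surrogate variables and −0.011 without those libraries, and Rps23 under isoproterenol was −0.066 without them and −0.032 with quality weights. Leaving out 1 library gave −0.058 to 0.072 for Mrpl3, −0.12 to 0.038 for Mrpl45, −0.021 to 0.066 for Mrps18b, −0.098 to 0.064 for Mrps18c and −0.055 to 0.077 for Rps23 in WT. In KO it gave −0.059 to 0.033 for Mrpl44, −0.084 to 0.058 for Mrps14, −0.023 to 0.062 for Mrps18a and −0.045 to 0.082 for Mrps22. Between KO and WT it gave −0.0072 to 0.11 for Mrps12 under vehicle and −0.067 to 0.080 for Rps23 under isoproterenol.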
